A study of Mus musculus with 14 samples.

Results

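The data compared here were RNA-seq read counts of late 2-cell mouse embryos that carried mutant histone H3 mRNA (H3K18R, lysine 18 changed to arginine) with those of embryos labelled WT. They came from 4 of the 14 libraries of the series, chosen by their titles, with 2 libraries in each group. All genes above a low-count filter were described, which left 17704 of 56923 genes in the count table. Per the study's methods, ICR zygotes received an injection, 14 h post-hCG, of a mixture of mRNAs for H3.1, H3.2 and H3.3, either wild-type or K18R, and were collected at 54 h. Each library was made from 5 embryos. Libraries of other conditions serve as reference below. G&N embryos were cultured with Gne140, an inhibitor of lactate dehydrogenase (LDH), with NMN and with lactate. G&N-L embryos had the same medium without lactate, and G&N-L + Lac-CoA embryos were injected with Lac-CoA and cultured without lactate. The label of the WT group holds no more than the letters WT, and the mutant columns of the count table are named K18A while the sample titles read H3K18R. The methods give 3 replicates per group and the counts hold 2, and no label says that the libraries of a group came from separate cultures, so p-values measure the spread between these libraries, which may be technical. The question of the comparison was whether lysine 18 of H3, a site of lactylation, is needed for the gene expression of the late 2-cell embryo.

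Histone H3 packs DNA into nucleosomes, and lysine 18 sits in its flexible tail, where it can be acetylated or lactylated. Such acyl marks neutralise the charge of the lysine and are known at promoters and enhancers of active genes. Arginine keeps the positive charge but cannot take these marks. In the mouse, transcription of the embryo's own genome starts in a minor wave in the zygote and early 2-cell embryo and is followed by the major wave in the late 2-cell embryo, while mRNA stored in the oocyte is degraded.

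H3.1 and H3.2 are encoded by many near-identical genes without introns, and H3.3 by H3f3a and H3f3b. The sequences below show why reads of an H3 mRNA can be counted at more than 1 gene. They are the first 75 coding bases of 6 H3 genes on GRCm39 (mm39), read on the coding strand, with the codon of lysine 18 (bases 55 to 57, since the first methionine is not counted) in capitals.
H3c1: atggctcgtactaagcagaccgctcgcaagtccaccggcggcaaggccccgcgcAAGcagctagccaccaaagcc
H3c10: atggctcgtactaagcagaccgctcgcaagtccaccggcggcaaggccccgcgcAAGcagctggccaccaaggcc
H3c11: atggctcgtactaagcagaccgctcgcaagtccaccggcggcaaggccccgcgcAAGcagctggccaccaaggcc
H3c4: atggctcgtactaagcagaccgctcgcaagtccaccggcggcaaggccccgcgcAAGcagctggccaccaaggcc
H3f3a: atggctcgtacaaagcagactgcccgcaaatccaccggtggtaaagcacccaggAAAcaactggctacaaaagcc
H3f3b: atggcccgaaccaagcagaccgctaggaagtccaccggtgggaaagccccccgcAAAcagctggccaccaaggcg
The stretch of H3c1 lies on chr13:23946262-23946336 (minus strand), that of H3c10 on chr13:21901829-21901903 (plus strand), that of H3c11 on chr13:21967466-21967540 (minus strand) and that of H3c4 on chr13:23759976-23760050 (plus strand). H3f3a starts on chr1:180639417-180639491 and H3f3b on chr11:115914761-115914835, both on the minus strand. Over the whole coding sequence, H3c10 differed from H3c1 at 5 bases, H3c11 at 7 and H3c4 at 11, with shared runs of up to 230, 194 and 215 bases. H3f3b differed at 80 bases and H3f3a at 94, and their longest runs shared with H3c1 were 21 and 14 bases. The sequences of the injected mRNAs were not used here, so the codon shown is that of the mouse genome and not of the mutant.

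The depth was 20350427 and 21215017 counts for H3K18R and 22200357 and 32012136 for WT. Where no read was counted, up to 3 counts remain possible, or 0.0937 to 0.147 CPM (read counts scaled to library size). All 10 markers of 2-cell embryos in the list used here, such as Zscan4d and Dppa5a, were detected, with a summed level of 5418 and 3611 CPM in H3K18R and 5433 and 5795 CPM in the libraries labelled WT. The list also held genes of oocyte stores, so it is not specific to the 2-cell stage. Of 13 markers of cumulus and granulosa cells, which surround the oocyte, 7 had no count in any of the 4 libraries, Has2, Fshr and Amh among them, and the list summed to 44.2 and 28.7 CPM in H3K18R and to 12.7 and 26.9 CPM in the libraries labelled WT. Of the 4 that were tested, 3 were higher in H3K18R without overlap, where 19.6% of all genes tested were. The median log2 fold change of the 4 was 2.85. Tnfaip6 was at 20.1 and 9.72 CPM against 0.588 and 8.28 CPM, and Ptgs2 at 3.40 and 5.45 CPM against 0 counts in both, with a DESeq2 adjusted p of 0.00723. Vcan had 29 and 105 counts against 0 and 12, and Amhr2 overlapped. Ptgs2 and Vcan passed the low-count filter only with the help of their H3K18R counts. The filter thus pushes the median of the 4 upward, and it is description only. The part of such cells in the results was not tested.

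H3K18R replicate 2 stood apart from the other 3 libraries. Of the genes with at least 10 CPM in either library of a pair, 6.07% (506 genes) differed by more than 2 on the log2 scale between the 2 H3K18R libraries, against 2.71% between the 2 libraries labelled WT. H3K18R replicate 1 differed in this way from the libraries labelled WT at 2.93% and 3.40% of genes, so it was nearer to both of them than to its own replicate. H3K18R replicate 2 differed from them at 6.14% and 8.49%. The median of a gene list against the mean of the WT libraries is therefore also given for each H3K18R library below. Replicates were no duplicates of each other: chi-square over its degrees of freedom was 130 for H3K18R and 56.5 for WT.

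The H3 genes came first, as a check of the injection. For the H3.1 gene H3c1, H3K18R gave 43643 and 83390 counts against 4 and 3 with the label WT, and both H3K18R libraries lay far above the other 2. These reads made up 0.214% and 0.393% of all counts in H3K18R. In the 10 libraries of the other conditions, H3c1 had 0 to 66 counts, so the libraries labelled WT showed no trace of an injected H3.1 mRNA at this gene. An mRNA with another coding sequence was not looked for. The study reports, from immunofluorescence of embryos of this stage, that both wild-type and mutant H3 were overexpressed. It describes the WT embryos of its RNA-seq as overexpressing wild-type H3 mRNA. That staining was not part of the data compared here. The counts alone do not tell whether the WT embryos sequenced held injected H3 mRNA. If these embryos held none, the change of lysine 18 and the injection or excess of H3 cannot be told apart in any difference given here. Summed over each group and scaled to the summed totals, the log2 ratio of H3K18R to WT was 14.53, with an exact 95% interval of 13.49 to 15.85 that covers counting error only. By edgeR's quasi-likelihood test, 1 gene passed an adjusted p of 0.05, and this was H3c1 (adjusted p = 0.0220, log2 fold change 14.40, standard error 0.65), which is 0.00565% of the genes tested.

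Per length, H3c1 stood at 4016 and 7361 CPM per kb of exon in H3K18R. H3f3b, the H3.3 gene with the highest level, stood at 1797 and 1368 CPM per kb in the same libraries and at 1798 and 1709 CPM per kb in the libraries labelled WT. In H3K18R, then, the level of H3c1 per length was above that of H3f3b in both libraries, and in the libraries labelled WT it was 0.34 and 0.18 CPM per kb. Without division by length the order in H3K18R was the reverse, with H3c1 at 2184 and 3789 CPM and H3f3b at 5505 and 3967 CPM. The exon lengths used were 534 and 3009 bases, and the length of the injected mRNA was not known.

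The other 11 H3 genes tested did not pass the adjusted test. Of those with near-identical coding sequence, H3c10 had 60 and 94 counts in H3K18R, H3c11 53 and 73, and H3c4 17 and 23, and each had 0 counts in both libraries labelled WT. Over the 12 libraries outside H3K18R, they reached 14, 21 and 88 counts, in that order. The 88 counts of H3c4 were in G&N-L + Lac-CoA replicate 2, so H3c4 was not particular to H3K18R. In H3K18R the counts of the 3 genes came to 0.121%, 0.0992% and 0.0315% of those of H3c1, and reads of H3c1 could be shared with these copies. That was not tested. Other near-identical copies were also counted in the libraries labelled WT. H3c3 had 26 and 60 counts against 11 and 9, and H3c6 14 and 35 against 7 and 16. In CPM both lay higher in H3K18R without overlap. H3c8 had 28 and 71 counts against 21 and 77, and H3c7 10 and 62 against 58 and 27, and both overlapped. H3c8 differed from H3c1 at 8 bases, fewer than H3c4. For H3.3, H3f3a was at 903 and 766 CPM in H3K18R and 845 and 872 CPM in the libraries labelled WT (log2 fold change -0.04, standard error 0.25). H3f3b was at 5505 and 3967 CPM against 5432 and 5262 CPM, and for both genes the groups overlapped. Among H3 genes below the filter, H3c2 had 1 and 4 counts in H3K18R, H3c15 had 2 and 9, and H3c13 and H3c14 had 0. So no clear trace of an injected H3.3 mRNA was seen at these genes in H3K18R either, and of the H3.1 and H3.2 genes only H3c1 had a large excess. An mRNA with another coding sequence was not looked for here either. An addition within the spread of H3f3a or H3f3b would not be seen. No H3 gene other than H3c1, H3c10, H3c11 and H3c4 reached an unadjusted p under 0.05. Cenpa, the H3 variant of centromeres, was at 233 and 186 CPM in H3K18R and 296 and 365 CPM in the libraries labelled WT, without overlap (log2 fold change -0.66, standard error 0.28).

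**Figure D1:**
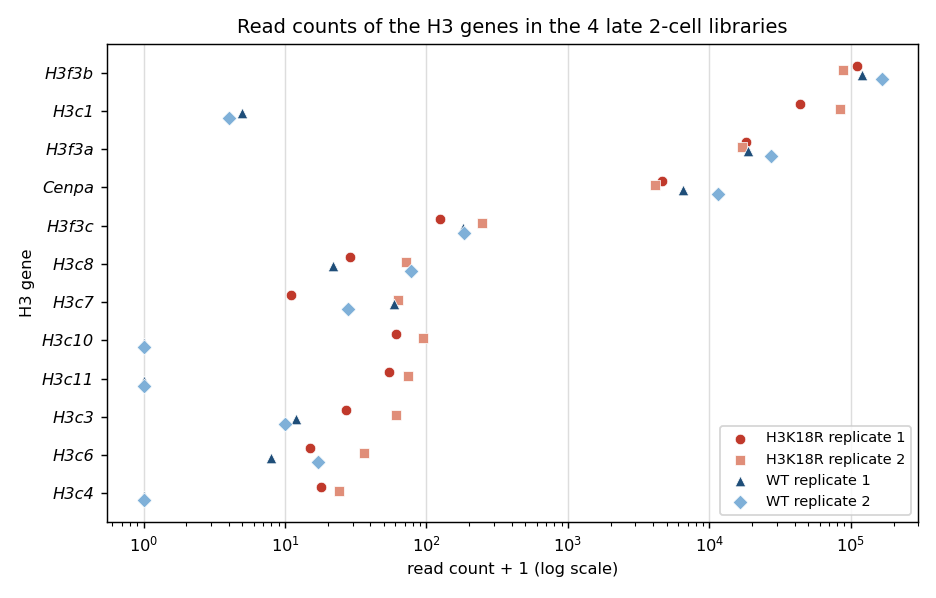
Read counts plus 1 of the 12 H3 genes tested (log axis), one point per library, in H3K18R replicates 1 and 2 and in the 2 libraries labelled WT, with points of a gene set slightly apart in height. For H3c1 the counts were 43643 and 83390 in H3K18R against 4 and 3 in the libraries labelled WT, and H3c10, H3c11 and H3c4 had no count in the libraries labelled WT.

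Across all genes, differences were of many sizes but few stood beyond the spread of 2 libraries per group. Before adjustment, 1141 genes (6.44%) had a p under 0.05, 473 of them (2.67%) lower and 668 (3.77%) higher in H3K18R, and all of them differed by more than 0.5 on the log2 scale. Both H3K18R libraries lay below both libraries labelled WT at 3418 genes (19.3%) and above both at 3468 (19.6%). With a log2 fold change beyond 1 as well, these became 1354 genes lower (7.65%) and 1931 higher (10.9%), and with at least 10 CPM in both libraries of the higher group, 300 lower (1.69%) and 399 higher (2.25%). DESeq2 called 31 genes lower (0.175%) and 89 higher (0.503%) at an adjusted p under 0.05. The median log2 fold change over all genes was 0.03, and 48.6% of fitted values were below 0.

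Many DESeq2 calls were genes at a few CPM that were present in one group and nearly absent in the other. Of its 89 higher calls, 61 had at most 3 counts in each library labelled WT, and of its 31 lower calls, 17 had at most 3 counts in each H3K18R library. Over all genes, 194 had at least 20 counts in both H3K18R libraries and at most 3 in each library labelled WT, and 143 showed the reverse. The median level of these genes in the group that had them was 2.30 and 1.68 CPM, in that order. With RNA from 5 embryos pooled in each library, fewer cells with a transcript and less RNA per cell cannot be told apart.

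**Figure D2:**
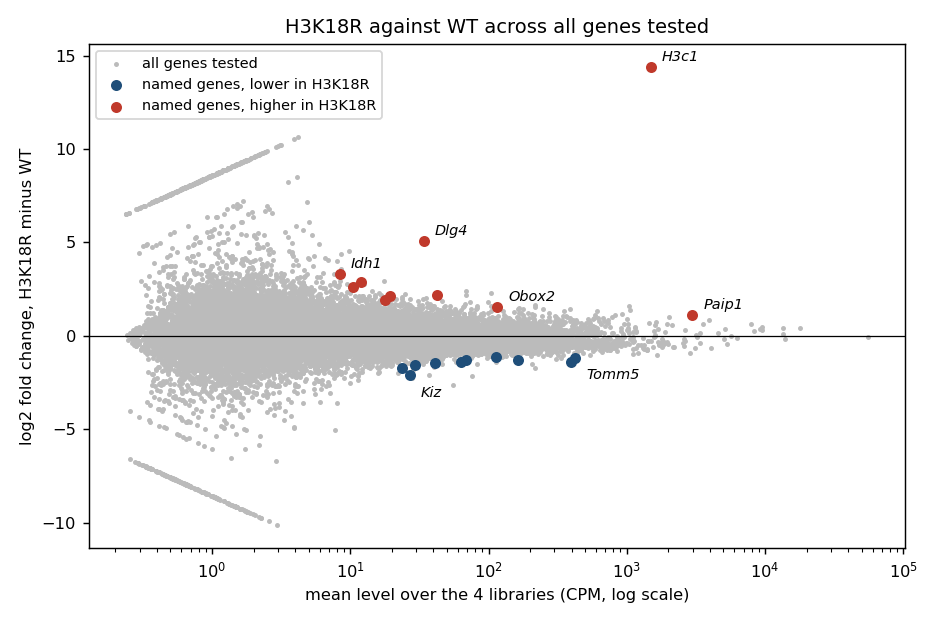
Log2 fold change (H3K18R minus WT) against the mean level over the 4 libraries in CPM (log axis) for the 17704 genes tested, with the named genes in colour. H3c1 stands alone at 14.40, and the straight rows of points at low level are genes with 0 counts in both libraries of one group.

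The 10 lower and 10 higher genes named were those with the smallest p among genes with a log2 fold change beyond 1, no overlap between the groups and at least 10 CPM in both libraries of the higher group. This choice favours genes whose replicates lie close together and whose groups lie apart, so such remarks on them below are description only. For the 19 of these other than H3c1, the adjusted p was 0.734 by edgeR's quasi-likelihood test, so their differences are given as measured values. DESeq2 gave an adjusted p under 0.05 for 5 of the 10 lower genes and for all 10 higher genes.

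Of the 10 lower genes named, Nip7, needed for processing of pre-rRNA to the large ribosomal subunit, was at 255 and 180 CPM in H3K18R and 533 and 608 CPM in the libraries labelled WT (log2 fold change -1.39, standard error 0.30, DESeq2 adjusted p = 0.00532). Abt1, a nucleolar activator of basal transcription, was at 111 and 76.9 CPM against 232 and 229 CPM. Eif3g, a subunit of the translation initiation factor eIF3, was at 75.5 and 67.1 CPM against 150 and 162 CPM. In all 3 the higher H3K18R library stayed well below the lower library labelled WT.

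2 of the lower genes encode subunits of one chromatin remodelling complex, INO80, which slides and exchanges nucleosomes. Ino80c was at 22.5 and 21.9 CPM in H3K18R and 57.6 and 63.4 CPM in the libraries labelled WT. Nfrkb was at 13.7 and 15.9 CPM against 45.2 and 42.2 CPM. The 2 H3K18R libraries were close to each other in both genes, and the log2 fold changes were -1.44 (standard error 0.33) and -1.56 (standard error 0.36). The subunits of INO80 were not read as a list, so these values do not describe the complex as a whole.

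2 other lower genes encode centrosome proteins. Kiz, which keeps the spindle poles intact in mitosis, was at 8.21 and 12.2 CPM against 43.1 and 45.1 CPM (log2 fold change -2.11, standard error 0.41, DESeq2 adjusted p = 0.0121), the largest difference of the 10. Cep43, a centriolar protein, was at 37.5 and 31.7 CPM against 92.3 and 92.2 CPM. The libraries labelled WT lay close together in both.

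Mitochondrial proteins gave 2 more. Tomm5, a small subunit of the import pore of the outer mitochondrial membrane, was at 254 and 268 CPM in H3K18R and 532 and 644 CPM in the libraries labelled WT. Ndufb7, an accessory subunit of respiratory complex I, was at 9.56 and 12.6 CPM against 40.0 and 32.8 CPM. Fyttd1, an adaptor of mRNA export from the nucleus, completed the list at 44.6 and 33.9 CPM against 90.0 and 104 CPM.

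Of the 10 higher genes named, the largest log2 fold change after H3c1 was that of Dlg4, which encodes the postsynaptic scaffold PSD-95. It was at 88.9 and 42.9 CPM in H3K18R and 2.35 and 1.503 CPM in the libraries labelled WT (log2 fold change 5.10, standard error 0.59, unadjusted p = 0.000202, DESeq2 adjusted p = 1.9e-16). Across the 6 late 2-cell libraries of G&N, G&N-L and G&N-L + Lac-CoA embryos it had 1.29 to 15.1 CPM (scaled to the library total). No library other than the 2 of H3K18R reached the lower of their values.

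Cdkn1a, the cyclin-dependent kinase inhibitor p21 and a known target of p53, was at 23.4 and 39.7 CPM in H3K18R and 6.38 and 8.06 CPM in the libraries labelled WT (log2 fold change 2.13, standard error 0.48). Obox2, an oocyte homeobox gene of maternal stores, was at 143 and 203 CPM against 64.8 and 52.8 CPM. Paip1, a partner of the poly(A)-binding protein in translation, was the most abundant of the named genes, with 4066 and 4112 CPM against 1887 and 1857 CPM. Its replicates nearly coincided in each group, and its log2 fold change of 1.13 stayed between 1.11 and 1.15 whichever library was left out.

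Acsl1, which activates long-chain fatty acids as acyl-CoA, was at 29.5 and 27.3 CPM in H3K18R and 8.004 and 6.81 CPM in the libraries labelled WT. Idh1, the cytosolic isocitrate dehydrogenase that yields NADPH, was at 10.01 and 20.5 CPM against 2.08 and 0.959 CPM. Lca5, a ciliary protein, was at 18.4 and 17.7 CPM against 3.35 and 2.53 CPM. In all 3 the lower H3K18R library lay above the higher library labelled WT by more than the distance between the latter.

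Raph1, an actin regulator of lamellipodia, was at 15.4 and 26.6 CPM in H3K18R and 1.81 and 3.90 CPM in the libraries labelled WT. Rps26-ps1, a transcribed pseudogene of the ribosomal protein gene Rps26, was at 65.4 and 74.2 CPM against 13.2 and 17.0 CPM, and is uncertain because its reads can be split with the parent gene. Rps26 itself went the other way, with 591 and 364 CPM in H3K18R and 746 and 874 CPM in the libraries labelled WT.

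**Figure D3:**
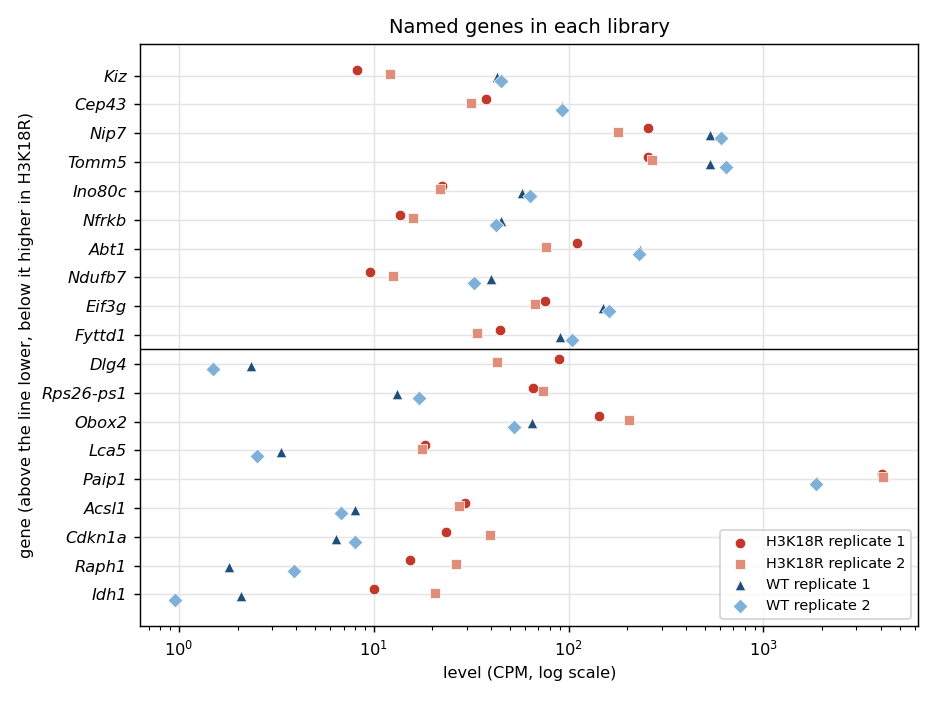
Level in CPM (log axis) of the named genes other than H3c1 in each of the 4 libraries, with the 10 lower genes above the line and the 9 higher genes below it. In every row both H3K18R libraries lie on one side of both libraries labelled WT, as the choice of these genes requires.

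The genes named by the study for this comparison had lower values in H3K18R with a wider spread. By edgeR's quasi-likelihood test, none reached an unadjusted p under 0.05. The p was 0.0953 for Dppa5a, 0.0708 for Usp29 and 0.0522 for Kdm4b. Their log2 fold changes were -0.74 (standard error 0.37), -0.93 (standard error 0.42) and -3.97 (standard error 1.61). Dppa5a, a pluripotency gene, was at 1357 and 737 CPM in H3K18R and 1560 and 1936 CPM in the libraries labelled WT. Usp29, a ubiquitin-specific protease gene, was at 70.1 and 34.2 CPM against 95.6 and 104 CPM. Neither overlapped between the groups, and in both H3K18R replicate 2 was the lower library by a wide margin. Kdm4b, a demethylase of H3 lysine 9 and lysine 36, was near the limit of detection in 3 of the 4 libraries, at 0.200 and 0.227 CPM in H3K18R and 0.678 CPM in WT replicate 1, and at 6.17 CPM in WT replicate 2.

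Among the lists of expression machinery, the lowest medians were those of ribosome production. Of 90 cytosolic ribosomal protein genes tested, 88 had a fitted value below 0, 73 (81.1%) lay in both H3K18R libraries below both libraries labelled WT, and 0 lay above both. Over all genes, 48.6% of fitted values were below 0, and 19.3% of genes lay lower and 19.6% higher without overlap, the shares against which each list below is to be read. Their median log2 fold change was -0.61, against 0.03 over all genes. Of the 34 nucleolar genes of ribosome biogenesis, all 34 were below 0, 26 (76.5%) had both H3K18R libraries below, and the median was -0.64. No gene of either list passed the adjusted test.

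Taken one library at a time, 73 of the 90 ribosomal protein genes were below both libraries labelled WT in H3K18R replicate 1 and 86 in replicate 2, where 33.2% and 36.5% of all genes tested were. Above both lay 34.6% of all genes in replicate 1 and 39.2% in replicate 2, and counts of single libraries below are to be read against these shares. The list's median against the WT mean was -0.33 in replicate 1 and -1.02 in replicate 2, so both libraries lay on the lower side and replicate 2 farther down. Rpl35a was at 50.1 and 33.6 CPM in H3K18R and 86.1 and 106 CPM in the libraries labelled WT. Rpl14 was at 97.1 and 74.0 CPM against 151 and 212 CPM. Rpl41, the gene of the list with the highest level, overlapped between the groups, at 3547 and 2335 CPM against 3405 and 4188 CPM.

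For the nucleolar genes, 26 of 34 were below both libraries labelled WT in replicate 1 and all 34 in replicate 2, with medians of -0.29 and -1.08. Ddx21, an RNA helicase of rRNA transcription and processing, was at 65.9 and 39.2 CPM in H3K18R and 101 and 108 CPM in the libraries labelled WT. Nop58, a core protein of box C/D snoRNPs, was at 176 and 105 CPM against 257 and 246 CPM. Npm1, nucleophosmin and the highest of the list, was at 1863 and 1354 CPM against 1987 and 2023 CPM.

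Other lists of gene expression machinery lay lower to a smaller degree. Of 31 subunits of RNA polymerases, 28 were below 0 and 17 (54.8%) did not overlap on the lower side (median -0.44, with -0.25 in replicate 1 and -0.75 in replicate 2). Polr3c, of RNA polymerase III, was at 28.5 and 25.6 CPM in H3K18R and 52.4 and 56.6 CPM in the libraries labelled WT. Of 53 splicing factor genes, 44 were below 0 and 26 (49.1%) did not overlap on the lower side (median -0.40, with -0.16 and -0.65), and Sf3a1, of the U2 snRNP, was at 20.5 and 18.6 CPM against 38.8 and 46.8 CPM. Of 37 proteasome subunit genes, 18 (48.6%) did not overlap on the lower side and 2 on the higher (median -0.33, with -0.21 and -0.52). No gene of these 3 lists passed the adjusted test.

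Among 73 translation initiation factor genes, 26 (35.6%) lay lower without overlap and 17 (23.3%) higher, the latter near the 19.6% of all genes. The median was -0.12, with -0.06 in replicate 1 and -0.26 in replicate 2. Eif3e was at 227 and 203 CPM in H3K18R and 382 and 385 CPM in the libraries labelled WT, and Eif5b, which joins the ribosomal subunits, at 271 and 187 CPM against 431 and 489 CPM. In the other direction, Eif1ad7, a 2-cell-stage copy of an initiation factor gene, was at 1231 and 1310 CPM against 698 and 439 CPM, and DESeq2 called it higher.

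Genes for mitochondria came in lists of nuclear and of mitochondrial genes, and no member passed the adjusted test. Of 77 mitochondrial ribosomal protein genes in the nucleus, 62 were below 0, and 35 (45.5%) lay lower without overlap against 6 higher (median -0.42). Mrpl9 was at 23.7 and 7.45 CPM in H3K18R and 60.6 and 131 CPM in the libraries labelled WT. Of 85 nuclear genes of the respiratory chain, 66 were below 0, and 40 (47.1%) lay lower without overlap against 3 higher (median -0.35). Atp5c1, of the ATP synthase, was at 127 and 127 CPM against 207 and 218 CPM.

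Of the 13 protein genes of the mitochondrial genome, the fitted value was below 0 in 1, 8 (61.5%) lay higher in H3K18R without overlap and 0 lower, and the median was 0.32. The difference between the nuclear and the mitochondrial lists was not tested. In replicate 1, 10 of the 13 lay above both libraries labelled WT and 1 below both, and in replicate 2, 10 and 3. The 10 came to 76.9% in each, where 34.6% and 39.2% of all genes lay above both. mt-Co1, a subunit of cytochrome c oxidase, was at 10638 and 11654 CPM in H3K18R and 7627 and 8332 CPM in the libraries labelled WT. mt-Cytb, the most abundant, overlapped, at 57480 and 50876 CPM against 55636 and 58945 CPM. Mitochondrial genes made up 11.7% and 12.2% of counts in H3K18R and 10.6% and 11.2% in the libraries labelled WT.

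The median against the WT mean was -0.32 and -0.43 for the mitochondrial ribosomal proteins, -0.28 and -0.33 for the nuclear respiratory chain genes and 0.17 and 0.35 for the mitochondrially encoded genes, in replicates 1 and 2. In replicate 1, 48 of the 77 mitochondrial ribosomal protein genes lay below both libraries labelled WT and 9 above both, and in replicate 2, 48 and 16.

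**Figure D4:**
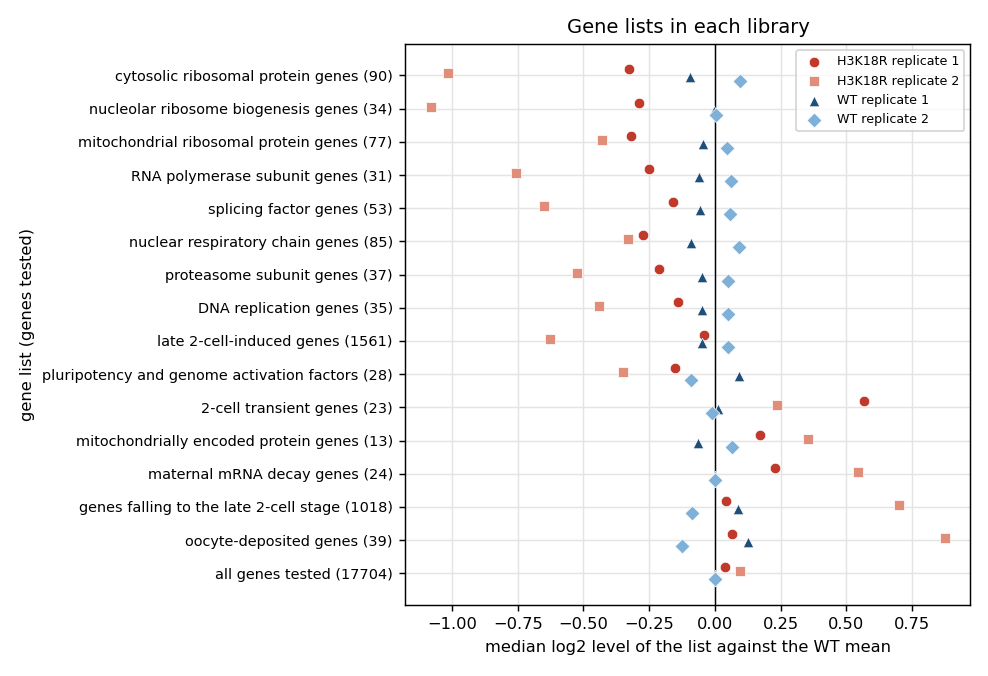
Median log2 level of each gene list in each library against the mean of the 2 libraries labelled WT, with the number of genes tested in brackets. For the ribosomal protein and nucleolar lists both H3K18R libraries lie below both libraries labelled WT, at -0.33 and -1.02 and at -0.29 and -1.08, while for the late 2-cell-induced genes replicate 1 lies at -0.04 and replicate 2 at -0.63.

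To ask how the major wave of transcription fared, genes were sorted by their change between stages in other libraries. G&N embryos (cultured with the LDH inhibitor Gne140, with NMN and with lactate) of the late stage were set against those of the early stage by edgeR's quasi-likelihood test. Past an adjusted p of 0.05 and 1 log2 unit, 1591 of 19443 genes (8.18%) were induced and 1062 (5.46%) fell. None of the 4 libraries compared here entered that choice. Of the induced genes, 1561 were tested here. Their median log2 fold change was -0.30, and 529 (33.9%) lay lower in H3K18R without overlap and 152 (9.74%) higher, against 19.3% and 19.6% of all genes. Of 1018 tested genes that fell, the median was 0.33, and 120 (11.8%) lay lower without overlap and 276 (27.1%) higher, against the same shares. No gene of either list passed the adjusted test.

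This pattern rested on H3K18R replicate 2. In replicate 1, the median of the induced genes against the WT mean was -0.04 and that of the falling genes 0.04, inside the range of the 2 libraries labelled WT (-0.05 to 0.05 and -0.09 to 0.09). In replicate 2 the medians were -0.63 and 0.70. Of the induced genes, 617 (39.5%) lay below both libraries labelled WT and 525 (33.6%) above both in replicate 1, and 1060 (67.9%) and 237 (15.2%) in replicate 2. Of the falling genes, 321 (31.5%) lay below both and 323 (31.7%) above both in replicate 1, and 196 (19.3%) and 655 (64.3%) in replicate 2. Over all genes tested, these shares were 33.2% and 34.6% in replicate 1 and 36.5% and 39.2% in replicate 2. Without replicate 2, the median of the induced genes was -0.07 and that of the falling genes -0.02, which turned its sign.

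Ordered by the size of the stage change, the genes of H3K18R replicate 2 formed a graded series and those of replicate 1 did not. For the 186 genes that were lower by more than 4 log2 units at the late stage, replicate 2 stood 1.31 above the WT mean and replicate 1 stood at -0.18. For the 1641 genes higher by 2 to 4 log2 units, replicate 2 stood at -0.53 and replicate 1 at -0.09.

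**Figure D5:**
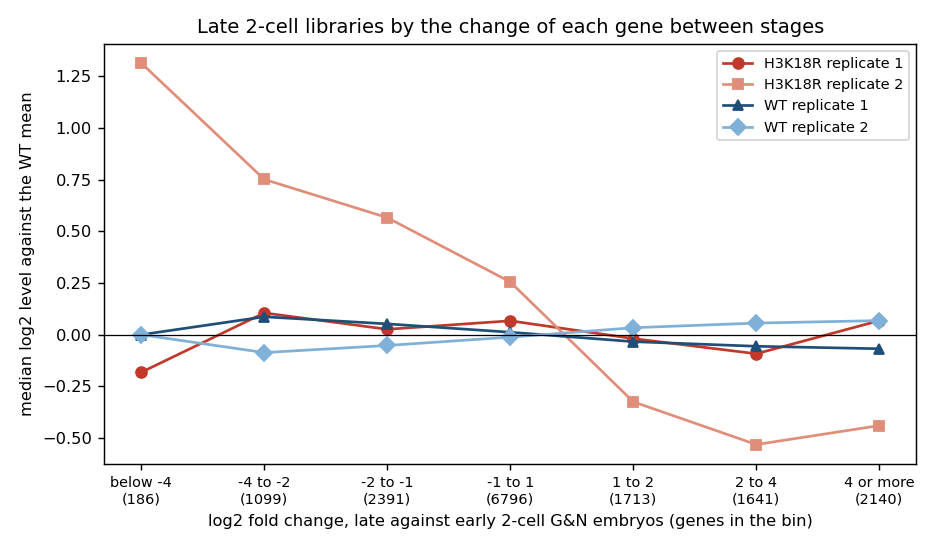
Median log2 level against the mean of the 2 libraries labelled WT, one line per library, for genes in bins of their log2 fold change from the early to the late stage in G&N embryos, with the number of genes in brackets. H3K18R replicate 2 goes from 1.31 in the first bin to -0.53 and -0.44 in the last 2, while replicate 1 stays between -0.18 and 0.11.

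The stores of the oocyte followed the same division. Of 39 oocyte-deposited genes tested, 10 were below 0, 3 (7.69%) lay lower without overlap and 13 (33.3%) higher, with a median of 0.47 (0.06 in replicate 1 and 0.87 in replicate 2). Their summed level was 7084 CPM in H3K18R replicate 1, 14160 CPM in replicate 2 and 6523 and 6074 CPM in the libraries labelled WT. Wee2, the oocyte kinase that holds CDK1 in check, was at 379 and 556 CPM in H3K18R and 235 and 213 CPM in the libraries labelled WT. Nlrp4f was at 312 and 817 CPM against 233 and 183 CPM. Oosp1, a secreted oocyte protein and the highest of the list, was at 2007 and 3065 CPM against 1544 and 1813 CPM, so all 3 were higher in both H3K18R libraries and highest in replicate 2. Without replicate 2, the list's median was 0.04.

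Of 24 genes that act in the decay of maternal mRNA, 4 (16.7%) lay lower without overlap and 11 (45.8%) higher, with a median of 0.44 (0.23 in replicate 1 and 0.54 in replicate 2). Btg4, the adaptor that brings the CCR4-NOT deadenylase to maternal mRNA, was at 1412 and 3998 CPM in H3K18R and 1350 and 1349 CPM in the libraries labelled WT, so that replicate 1 lay just above them and replicate 2 stood alone. Pan3, of the PAN2-PAN3 deadenylase, was at 533 and 843 CPM against 361 and 364 CPM. Cnot1, the scaffold of CCR4-NOT, was on the lower side, at 99.0 and 94.8 CPM against 165 and 151 CPM.

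Of 23 genes of the transient 2-cell program, 1 (4.35%) lay lower without overlap and 8 (34.8%) higher, against 19.3% and 19.6% of all genes, with a median of 0.26. Zscan4d was at 601 and 745 CPM in H3K18R and 572 and 253 CPM in the libraries labelled WT, and Zscan4a at 106 and 82.7 CPM against 68.9 and 74.2 CPM. Here replicate 1 was the higher library, with a median of 0.57 against 0.23 in replicate 2. In replicate 1, 15 of the 23 genes (65.2%) lay above both libraries labelled WT and 2 below both, where 34.6% of all genes lay above. In replicate 2, 12 (52.2%) lay above both and 10 (43.5%) below both, where 39.2% of all genes lay above and 36.5% below.

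Of 8 Obox homeobox genes, Crxos included, 3 lay lower and 3 higher without overlap (median 0.39, with 0.17 in replicate 1 and 0.40 in replicate 2). Obox1 was at 189 and 362 CPM in H3K18R and 159 and 126 CPM in the libraries labelled WT, and Obox7 at 89.5 and 275 CPM against 84.1 and 61.7 CPM, beside the higher Obox2 given above. Crxos, a homeobox gene switched on at the 2-cell stage, was at 2079 and 1879 CPM against 3583 and 3941 CPM (log2 fold change -0.93, standard error 0.24, unadjusted p = 0.0105), with both H3K18R libraries close to each other.

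Of 28 pluripotency and genome activation factors, 21 were below 0, and 9 (32.1%) lay lower without overlap against 1 higher (median -0.31, with -0.15 in replicate 1 and -0.35 in replicate 2). Dppa3, which guards the maternal genome from demethylation and was the highest of the list, overlapped at 15491 and 10931 CPM in H3K18R and 15299 and 14191 CPM in the libraries labelled WT. Among 42 chromatin modifiers and repressors of the 2-cell program, 9 lay lower and 9 higher without overlap (21.4% each, near the shares of all genes), with a median of -0.10. The H3K18R libraries went opposite ways there. In replicate 1 the median was 0.16, with 22 genes (52.4%) above both libraries labelled WT and 9 (21.4%) below both. In replicate 2 the median was -0.32, with 11 (26.2%) above and 26 (61.9%) below. Over all genes, 34.6% and 39.2% lay above both and 33.2% and 36.5% below both, in replicates 1 and 2. Kdm2b, an H3 lysine 36 demethylase of Polycomb complexes, was at 9.76 and 9.50 CPM against 23.4 and 28.2 CPM, and Suv39h1, an H3 lysine 9 methyltransferase, at 13.2 and 13.8 CPM against 27.4 and 35.7 CPM.

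Of 27 genes that write, erase and read acyl marks on lysine, 6 (22.2%) lay lower without overlap, near the 19.3% of all genes, and 3 (11.1%) higher. The median was -0.09, with -0.13 in replicate 1 and -0.24 in replicate 2. Sirt7, a deacylase of H3 lysine 18, was at 5.05 and 5.32 CPM in H3K18R and 9.90 and 18.7 CPM in the libraries labelled WT, and Mllt3, a YEATS-domain reader of acyl-lysine, at 342 and 497 CPM against 312 and 237 CPM. Of 24 genes of glycolysis, lactate and pyruvate, 6 (25%) lay lower and 4 (16.7%) higher (median -0.04, with -0.16 and -0.14). Of 19 chaperones of H3, 8 (42.1%) lay lower and 2 (10.5%) higher (median -0.27, with -0.18 and -0.35), and Asf1a, which hands H3 to its assembly factors, was at 90.8 and 109 CPM against 74.9 and 52.3 CPM.

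The remaining lists had medians of -0.19 over 31 other histone genes and -0.01 over 53 Usp genes. Markers of blood, sperm and later stages stayed low, with sums of at most 71.4, 8.18 and 50.2 CPM, and their part in the results was not tested.

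Among genes of DNA replication, 13 of 35 (37.1%) lay lower without overlap and 2 (5.71%) higher, against 19.3% and 19.6% of all genes (median -0.24, with -0.14 in replicate 1 and -0.44 in replicate 2). Mcm3, a subunit of the replicative helicase, was at 28.3 and 22.9 CPM in H3K18R and 51.9 and 63.7 CPM in the libraries labelled WT, and Mcm10 at 11.4 and 8.09 CPM against 32.4 and 20.2 CPM. Of 36 cyclins, mitotic kinases and APC/C genes, 9 lay lower and 9 higher (25% each, median 0.05, with -0.06 and 0.12). The 4 members with the smallest p went both ways. Cdk2 was at 46.4 and 33.7 CPM against 82.0 and 75.5 CPM, and Cdc25c, a phosphatase that activates CDK1, at 69.1 and 63.0 CPM against 152 and 102 CPM. Cdkn1a and Wee2, with the values given above, were the other two.

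Of 22 genes of the p53 and integrated stress responses, 7 (31.8%) lay lower without overlap and 3 (13.6%) higher (median -0.20, with -0.31 and -0.23), and apart from Cdkn1a the smallest p belonged to Hspa5, the chaperone of the endoplasmic reticulum, at 40.1 and 94.6 CPM in H3K18R and 130 and 191 CPM in the libraries labelled WT. Of 16 heat shock genes, 3 (18.8%) lay lower and 7 (43.8%) higher (median 0.23, with 0.24 and 0.09). Of 18 interferon and RNA-sensing genes, 5 (27.8%) lay lower and 2 (11.1%) higher (median -0.09, with -0.22 and 0.22), and Ddx58, which encodes the RNA sensor RIG-I, was at 18.8 and 27.6 CPM against 5.83 and 7.26 CPM.

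The genes at 10 CPM or more that did not overlap beyond 1 log2 unit were also read in the other conditions of the series. Of the 300 lower genes, 19.5% of those tested were among the induced genes and 2.36% among the falling genes, and of the 399 higher genes, 6.03% and 18.6%. Over all 7207 genes at this level the shares were 16.8% and 9.41%. Of the lower genes, 76.9% were also fitted below 0 in late G&N-L against late G&N embryos, of the higher genes 32.8%, and of all 7207 genes 60.5%. That comparison, of embryos cultured without lactate against embryos cultured with it, shares no library with the one described here.

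Set beside late G&N embryos, the libraries labelled WT were often the ones farther away. In 247 of the 300 lower genes (82.3%), both libraries labelled WT were above both late G&N libraries, while both H3K18R libraries were above them in 84 (28.0%). In 348 of the 399 higher genes (87.2%), both libraries labelled WT were below both late G&N libraries, and both H3K18R libraries in 137 (34.3%). Over all 7207 genes, the libraries labelled WT were above at 42.5% and below at 33.0%, and the H3K18R libraries above at 30.6% and below at 22.6%. The 28.0% of H3K18R in the lower genes was thus near its share over all genes. The choice of the genes used the WT values, so these shares are a description, and the G&N embryos differed from WT embryos in their culture as well. In late G&N embryos, mitochondrial genes made up 6.77% and 6.84% of counts, against 10.6% and 11.2% in the libraries labelled WT. Culture, injection and other differences between these sets of libraries cannot be told apart here.

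Single genes showed the same order, in CPM scaled to the library total. Nip7 was at 97.0 and 130 CPM in late G&N embryos, 251 and 187 CPM in H3K18R and 531 and 594 CPM in the libraries labelled WT. Ino80c was at 10.04 and 12.5 CPM, 22.1 and 22.8 CPM, and 57.4 and 61.9 CPM in the same order. Cdkn1a, in contrast, was at 23.7 and 31.6 CPM in late G&N embryos, 23.0 and 41.2 CPM in H3K18R and 6.35 and 7.87 CPM in the libraries labelled WT, so that H3K18R and late G&N overlapped.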

How the data were processed

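RNA was measured by sequencing in 14 libraries of 5 embryos each, of which 4 (2 H3K18R and 2 WT, by sample title) were compared. Per the submitters' processing notes, the authors used FastQC, Trim Galore, HISAT2 with the mm39 genome, and featureCounts for read counts of genes (versions not given in the sources used here). The deposited values are raw counts per gene, without normalization. Depth ran from 20350427 to 32012136 counts. Intervals and limits cover counting error only, since reads from PCR are not each a molecule of their own.

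The analysis ran edgeR 4.0.16 in R 4.3.3: its default low-count filter, TMM normalization, and the two-sided quasi-likelihood test, its p adjusted by Benjamini-Hochberg over the 17704 genes tested, on the 4 libraries without covariates. CPM use TMM library sizes unless said to be scaled to the library total. Log2 levels per library use a prior count of 2 and fitted log2 fold changes one of 0.125. The smallest two-sided p of an exact permutation of 2 and 2 libraries is 0.333, so no such test is reported. Alternatives were DESeq2 1.42.0, its size factors in edgeR, library totals, no filter, a joint fit of all 14 libraries, a block for the replicate number, a minimum of 10 counts per library, stage lists at 2 log2 units, each library left out in turn and, chosen after seeing the data, each H3K18R library on its own. Scripts were tested on simulated data.

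The genes and the 31 hand-written lists were chosen with earlier results of these data known. Named were genes with an adjusted p under 0.05, the H3 genes tested, 3 genes that the study's text names for this comparison, up to 4 members of a list by smallest p or highest level, and in each direction the 10 genes of smallest p that had at least 10 CPM in both libraries of the higher group, no overlap, a log2 fold change beyond 1 and a symbol that is not a model name. Members named outside this rule (Rps26, Has2, Fshr, Amh) were chosen after their values were seen. Gene IDs matched the GENCODE M39 annotation for 56236 of 56923 genes, and sequences were read from GRCm39.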

Additional observations from a re-analysis of the deposited data

How the results depend on the processing

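H3c1 had an adjusted p under 0.05 in every setting that tested it except without WT replicate 2, where its log2 fold change was 13.96 (13.96 to 14.87 with a library left out) and 0 genes passed, with 171 genes lower and 500 higher at an unadjusted p under 0.05 beyond 0.5 log2. The filter of at least 10 counts in every library removed it, and 1 other gene passed there. The count of genes past the adjusted threshold, 1 in the reported fit, was 120 with DESeq2, 78 without a low-count filter and 9 with all 14 libraries in one fit, and 0 to 1 with a library left out. Genes lower at the unadjusted threshold numbered 158 to 1668 with a library left out (1668 without H3K18R replicate 1, 158 without WT replicate 1 and 171 without WT replicate 2, against 473), and genes higher 419 to 1336 (1336 without H3K18R replicate 1 and 419 without H3K18R replicate 2, against 668). Without a filter, 1184 genes were higher, and with all 14 libraries 1344. The lower genes made up 41.5% of these calls in the reported fit, 60.6% without H3K18R replicate 2, 55.5% without H3K18R replicate 1, 17.4% without WT replicate 1, 25.5% without WT replicate 2 and 25.8% with all 14 libraries. With a library left out, 1 arm holds a single library, whose spread is assumed to be that of the other group, so these counts say little of stability. The cause was not tested.

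The replicate numbers did not pair the libraries (correlation of same-numbered deviations -0.03 across 17704 genes), and with the replicate number as a block the counts were 235 lower and 383 higher, with 1 gene past the adjusted threshold.

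The median log2 fold change, late 2-cell-induced genes, ran from -0.667 to -0.0653 and the median log2 fold change, genes falling to the late 2-cell stage, from -0.0215 to 0.632 with a library left out, the nearest to 0 without H3K18R replicate 2. The cytosolic ribosomal protein and nucleolar lists kept their direction in every setting, at -1.03 to -0.34 and -1.16 to -0.30 with a library left out. Directions turned without H3K18R replicate 2 for H3f3b (0.0383, range -0.433 to 0.0383 with a library left out), H3f3a (0.0687, range -0.168 to 0.0687), H3f3c (-0.17, range -0.17 to 0.68), H3c8 (-0.29, range -0.29 to 1.27), mt-Cytb (0.000731, range -0.174 to 0.000731) and Dppa3 (0.0674, range -0.434 to 0.0674), without H3K18R replicate 1 for H3c7 (0.69), and without WT replicate 1 for H3c7 (0.97, range -1.79 to 0.97) and H3c8 (-0.07). With 2 libraries per group, differences near the spread of H3K18R replicate 2 could not be resolved.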

Other observations

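Some lists were also read in late G&N embryos, in summed CPM scaled to the library total. Here too, culture, injection and other differences between these sets of libraries cannot be told apart. The 39 oocyte-deposited genes that were tested, with 1 more that was not, summed to 22997 to 23420 CPM in late G&N embryos, 6957 and 14691 CPM in H3K18R and 5935 to 6497 CPM in the libraries labelled WT. The cytosolic ribosomal protein genes summed to 10502 and 11485 CPM in late G&N embryos, 20509 and 14121 CPM in H3K18R and 23329 and 25854 CPM in the libraries labelled WT. The late 2-cell-induced genes summed to 122617 and 136712 CPM, 220355 and 148268 CPM, and 232342 and 241480 CPM in the same order, though late G&N embryos were used to choose them. In all 3 lists the 2 H3K18R libraries lay between late G&N embryos and the libraries labelled WT, with replicate 2 the nearer to late G&N. Btg4 stood at 7810 and 8452 CPM in late G&N embryos, 1387 and 4148 CPM in H3K18R and 1345 and 1319 CPM in the libraries labelled WT.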
